A study of Mus musculus with 20 samples.

Results

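Acyl-CoA thioesterases split fatty acyl-CoA esters into a free fatty acid and coenzyme A (CoA), and so set how much activated fatty acid a compartment of the cell holds. The genes Acot1 to Acot6 encode closely related enzymes that act in the cytosol (ACOT1), the mitochondrion (ACOT2) and the peroxisome (ACOT3 to ACOT6), and in mouse liver several of them are known targets of PPAR-alpha, the nuclear receptor that drives fatty acid oxidation in fasting. ACOT12 and ACOT13 belong to a separate protein family: ACOT12 is a cytosolic acetyl-CoA hydrolase of the liver, and ACOT13, also called THEM2, hydrolyses long-chain acyl-CoA and binds the phosphatidylcholine transfer protein PCTP. The 8 genes described here (Acot1, Acot2, Acot3, Acot4, Acot5, Acot6, Acot12 and Acot13) were chosen by name from the 46603 gene identifiers of the count tables, and Acot5 was selected on its rise in the knockout after partial hepatectomy. Its values are therefore descriptions without a test.

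The samples were livers of male mice aged 2 months on the C57BL/6J background. The wild-type mice (WT) were bought from a vendor as C57BL/6J, and the mutant mice (EedHepKO, here KO) carried the transgene Alb:Cre, which expresses Cre from the albumin promoter of hepatocytes, and Eed alleles with loxP sites around exons 3 and 6. Eed encodes a core subunit of polycomb repressive complex 2 (PRC2), and the design asked how its loss in hepatocytes changes expression before and after partial hepatectomy (PHx). Lobes 1, 2 and 3 taken at surgery were the baseline sample, and lobes 4, 5 and 6 taken 30 h (1 mouse per genotype), 40 h (2 mice) or 48 h (2 mice) later were the sample after PHx, which gave 4 groups of 5 libraries. The labels name no Cre or loxP allele for the WT mice, so genotype and colony of origin cannot be told apart, and neither can the surgery and the lobe. Bulk RNA was sequenced, so fewer cells of a type and less RNA per cell cannot be told apart.

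Each library held 21634890 to 30461351 counted reads. Levels are given as CPM, counts scaled to a common library total after TMM normalization, and, for comparison between genes, as TPM, which also divides by the exon length. Eed itself was 14.6 to 23.2 CPM in the 10 WT libraries and 2.75 to 7.52 CPM in the 10 KO libraries, and the groups did not overlap. Albumin, the defining hepatocyte transcript, was present in all 20 libraries at 27206 CPM or more. The libraries after PHx differed widely within each genotype. Mki67, a marker of dividing cells, was 82.3, 0.217, 14.2, 0.284 and 328 CPM in WT mice 1 to 5 after PHx and 3.42, 8.17, 119, 25.3 and 3.65 CPM in KO mice 7, 8, 10, 11 and 12. In WT mice 2 and 4 it lay below all 5 WT baseline libraries (0.505 to 1.76 CPM), so results that use WT after PHx were also computed without these 2 libraries. KO mice 7, 8 and 12, at 3.42, 8.17 and 3.65 CPM of Mki67, were kept, so these fits trim the WT group only.

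The genes Acot1 to Acot6 lie side by side on the plus strand of chromosome 12 (mm10, GENCODE M21) within 123489 bases, in the order Acot2 (83987861 to 83993873), Acot1 (84009490 to 84018371), Acot4 (84038379 to 84048601), Acot3 (84052144 to 84060402), Acot5 (84069325 to 84076020) and Acot6 (84100654 to 84111349). Acot12 lies on chromosome 13 (91741512 to 91786148, plus strand) and Acot13 on the same chromosome (24817948 to 24831540, minus strand). All 8 are protein coding. The coding sequences of the 6 neighbours were 66.3% to 85.6% identical in pairs. Acot1 and Acot2 were the closest pair at 85.6%, and Acot3 and Acot5 followed at 83.2%. Acot12 and Acot13 shared 17.3% to 41.2% with any other of the 8. The authors counted reads that mapped to a single place, so such similarity removes reads: of all stretches of 100 bases in the transcripts, 82.9% were found in no other gene for Acot2, 87.6% for Acot1, 86.2% for Acot3 and 92.2% for Acot5. For Acot4 and Acot6 the share was 99.7% and 99.1%, and for Acot12 and Acot13 it was 100%. Levels of Acot1, Acot2 and Acot3 may thus be understated. Acot3 and Acot4 are also overlapped by Gm49366, which joins both genes on the same strand, and by the antisense gene 4732463B04Rik (0.869 CPM or less in every library), and Acot12 by the antisense gene 4833422C13Rik (0.343 to 7.67 CPM). The strand setting of the counts is not given in the sources used here.

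Promoters, 250 bases before to 50 bases after the start, were found in RefSeq (GRCm38.p6) for 6 of the 8 genes. Those of the 4 genes on which the results below turn are shown, because these neighbours changed together or apart after surgery. All 4 are on the plus strand of chromosome 12. Capitals mark the hexamer AGGTCA or its reverse complement TGACCT, the unit to which PPAR-alpha and its partner RXR bind as a direct repeat with 1 base between.
Acot2, chr12:83987611-83987910: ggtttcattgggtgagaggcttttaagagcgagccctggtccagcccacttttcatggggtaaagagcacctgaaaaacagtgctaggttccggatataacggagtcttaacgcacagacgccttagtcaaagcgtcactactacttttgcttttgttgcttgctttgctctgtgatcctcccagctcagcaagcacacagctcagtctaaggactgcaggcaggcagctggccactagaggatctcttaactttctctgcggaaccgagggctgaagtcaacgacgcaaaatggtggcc
Acot1, chr12:84009252-84009551: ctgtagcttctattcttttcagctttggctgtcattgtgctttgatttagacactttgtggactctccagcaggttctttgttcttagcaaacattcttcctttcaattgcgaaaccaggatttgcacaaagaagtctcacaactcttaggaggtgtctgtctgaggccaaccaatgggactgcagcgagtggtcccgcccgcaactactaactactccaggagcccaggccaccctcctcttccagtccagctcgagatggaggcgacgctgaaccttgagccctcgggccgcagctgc
Acot3, chr12:84051894-84052193: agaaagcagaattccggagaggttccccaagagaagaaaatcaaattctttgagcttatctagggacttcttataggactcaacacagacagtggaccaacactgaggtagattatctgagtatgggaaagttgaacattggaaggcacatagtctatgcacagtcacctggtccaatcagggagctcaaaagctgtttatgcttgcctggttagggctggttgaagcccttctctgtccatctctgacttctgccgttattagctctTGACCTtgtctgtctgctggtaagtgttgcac
Acot5, chr12:84069074-84069373: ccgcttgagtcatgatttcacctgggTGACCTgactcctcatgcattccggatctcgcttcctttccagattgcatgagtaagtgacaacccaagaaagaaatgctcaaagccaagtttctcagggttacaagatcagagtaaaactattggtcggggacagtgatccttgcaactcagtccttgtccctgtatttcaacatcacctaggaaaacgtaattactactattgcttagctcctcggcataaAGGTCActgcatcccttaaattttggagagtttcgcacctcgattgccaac
The hexamer was present on either strand in 4 of 6 promoters (Acot3, Acot4, Acot5 and Acot12), against 16% of the 27025 promoters of the same length in the table. Acot5 held 2 copies, at 224 bases before the start and across the start, as did 1.74% of all promoters (2 or more). The window of Acot1 and that of Acot2 held none. The direct repeat was in none of the 6 and in 0.0444% of all promoters. The dinucleotide CG occurred 2 times in the promoter of Acot3, 7 times in Acot4, 8 in Acot5, 9 in Acot1, 10 in Acot2 and 22 in Acot12, beside a median of 7 over all promoters. These are matches of letters, not sites of binding.

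At rest, the liver of WT mice expressed Acot13 and Acot12 most and Acot5 not at all. By mean TPM the order at WT baseline was Acot13 (99.8 ± 28.1, SD, n = 5), Acot12 (55.0 ± 15.7), Acot1 (11.8 ± 4.48), Acot4 (3.85 ± 1.36), Acot2 (3.61 ± 1.44), Acot3 (0.826 ± 0.545), Acot6 (0.257 ± 0.144) and Acot5 (0). Among neighbours in this order, the ranges over libraries did not overlap between Acot12 and Acot1 or between Acot6 and Acot5. Acot4 stood above Acot2 in only 2 of 5 libraries, so those levels did not differ beyond their spread, while each of the other orders held in 5 of 5 libraries. In KO at baseline Acot13 (129 ± 8.27), Acot12 (50.7 ± 5.74) and Acot1 (13.7 ± 5.89) again led and Acot5 was last. After PHx the order was less even: in KO, Acot13 (74.4 ± 29.9 TPM), Acot12 (71.1 ± 34.8), Acot2 (62.9 ± 45.9), Acot1 (55.2 ± 25.3), Acot5 (44.1 ± 43.1) and Acot3 (37.3 ± 7.60) overlapped from one to the next. Acot4 (10.2 ± 3.61) lay below Acot3, and Acot6 (1.56 ± 0.275) below Acot4, without overlap, while Acot5 ran from 0.487 to 93.4 TPM and so overlapped both. In WT baseline replicate 1 the 10 most abundant genes took 30.4% of the counts, beside 20.6% to 22.3% in the other WT baseline libraries, and TPM, which carries no TMM scaling, was lowest there for 6 of the 7 detected genes (all but Acot6).

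The summed TPM of the 6 neighbouring genes was 20.4 ± 7.30 at WT baseline, 78.6 ± 35.8 in WT after PHx, 30.5 ± 14.2 at KO baseline and 211 ± 74.7 in KO after PHx (SD, n = 5 each). TPM carries no TMM scaling. The factor by which TMM scales the library total was 0.669 to 0.806 at WT baseline and 0.976 to 1.51 in KO after PHx. Between these groups TPM thus differs more than CPM. Acot1, for one, was 11.8 and 55.2 TPM but 29.5 and 67.7 CPM on average. Shares within a library are free of this scaling. Acot1 made up 57.4% ± 4.81 of that sum at WT baseline and 24.7% ± 16.8 after PHx. Acot2 went from 17.5% ± 2.46 to 43.9% ± 15.2 in WT. In KO after PHx no gene held more than 28.1% on average, with Acot2 at 28.1% ± 11.9, Acot1 at 26.2% ± 7.27, Acot5 at 20.2% ± 21.4 and Acot3 at 19% ± 6.05. In KO after PHx the ranges of these 4 shares overlapped. Acot5 enters the sum at 7.62 TPM in WT and 44.1 TPM in KO after PHx on average. It was chosen for its rise in these KO libraries, so their sum and shares follow in part from that choice.

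**Figure D1:**
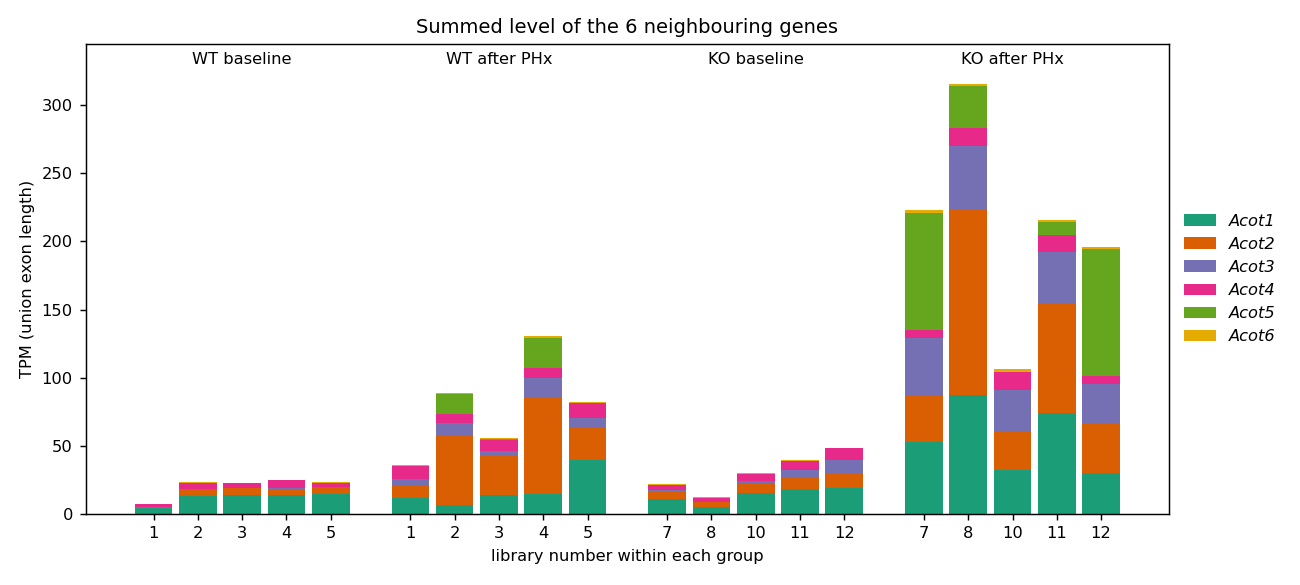
Stacked bars give the TPM of the 6 neighbouring genes in each of the 20 libraries (x axis: library number within its group, y axis: TPM from 0). The KO libraries after PHx reach 106 to 316 TPM, and the share of Acot5 there runs from 0.459% to 47.7%. TPM carries no TMM scaling, which raises the KO bars after PHx against those at WT baseline.

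Acot5, the peroxisomal enzyme of medium-chain acyl-CoA, had 0 reads in all 5 WT baseline libraries and 4 reads in all in the 5 KO baseline libraries. After PHx it was 0.0436, 12.4, 0.761, 15.9 and 0 CPM in WT mice 1 to 5. Mice 2 and 4 were high and the other WT mice near or at the baseline. In KO mice 7, 8, 10, 11 and 12 after PHx it was 42.8, 12.1, 0.305, 4.00 and 65.8 CPM. Mice 7 and 12 lay above every WT library, mouse 10 was near the baseline, and the genotypes overlapped. In WT the pooled count went from 0 to 755, at least 191-fold higher against a floor of 3 counts over the group. Mice 2 and 4 hold 286 and 448 of these reads. The bound was at least 99.4-fold without mouse 4 and at least 8.80-fold without both, where 21 reads remained and the mean was 0.268 CPM. In the 10 WT libraries alone Acot5 did not pass the filter on low counts, so no test is given. In KO the pooled count went from 4 to 3521, and the means after PHx were 5.83 ± 7.71 CPM in WT and 25 ± 28.3 CPM in KO (SD, n = 5), a fitted log2 difference of 2.10 that chose the gene and is not tested. That difference was 6.52 without WT mice 2 and 4, 2.92 without WT mouse 4, 2.88 without the 40 h libraries, 1.34 without KO mouse 12, 1.12 with the time point as an added term and 1.02 without the 30 h libraries. The 6.52 follows from leaving out the WT libraries with the most Acot5 while all KO libraries were kept. By time after surgery, Acot5 was 0.0436 CPM in WT and 65.8 CPM in KO at 30 h, 12.4 and 0.761 CPM in WT and 0.305 and 4.00 CPM in KO at 40 h, and 15.9 and 0 CPM in WT and 42.8 and 12.1 CPM in KO at 48 h.

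The libraries with much Acot5 were also those with much Pdk4, a PPAR-alpha target that restrains glucose oxidation, and with little Mki67. Pdk4 was 10.9, 614, 40.9, 1020 and 34.1 CPM in WT mice 1 to 5 after PHx and 1691, 1461, 28.3, 335 and 1615 CPM in KO mice 7, 8, 10, 11 and 12. Over all 20 libraries the Pearson correlation of log2(CPM + 1) between Acot5 and Pdk4 was 0.96 (Spearman 0.75), and between Acot5 and Mki67 it was -0.24 (0.05). The libraries fall into separate groups, so these are descriptions of shared libraries. Pdk4 and Mki67 were named after their values were seen. The summed adipocyte markers moved with Acot5 as well. They were 0.550 to 1.90 CPM at WT baseline and 0.563 to 3.88 CPM at KO baseline. After PHx they were 16.9, 747, 172, 420 and 4.74 CPM in WT mice 1 to 5 and 256, 384, 30.5, 83.2 and 666 CPM in KO mice 7, 8, 10, 11 and 12. Of the 4 genes in that list only Cidec, a lipid droplet gene that is also a PPAR-alpha target, passed the filter, Lep was at 0 in all 20 libraries and Adipoq in all 10 KO libraries. The summed hepatocyte markers were 79899, 133670, 113070, 100240 and 99582 CPM in WT mice 1 to 5 after PHx and 61986, 48366, 69356, 49401 and 106030 CPM in KO mice 7, 8, 10, 11 and 12. The cholangiocyte markers were 21, 79.6, 239, 111 and 33.5 CPM in the same WT mice and 562, 537, 188, 275 and 120 CPM in the KO mice. KO mice 7 and 8, with 42.8 and 12.1 CPM of Acot5, thus had the highest cholangiocyte sums, and KO mouse 12, with the most Acot5, the highest hepatocyte sum among the KO libraries after PHx. The stellate cell and fibroblast markers were 133, 214, 135, 188 and 124 CPM in the WT mice and 407, 231, 270, 281 and 421 CPM in the KO mice. They were highest in WT mice 2 and 4 and KO mice 7 and 12, but KO mouse 8 was the lowest KO library. The macrophage markers were 186, 111, 235, 57.0 and 110 CPM in the WT mice and 58.9, 241, 205, 251 and 90.1 CPM in the KO mice. The part of tissue makeup in the Acot5 values was not tested.

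**Figure D2:**
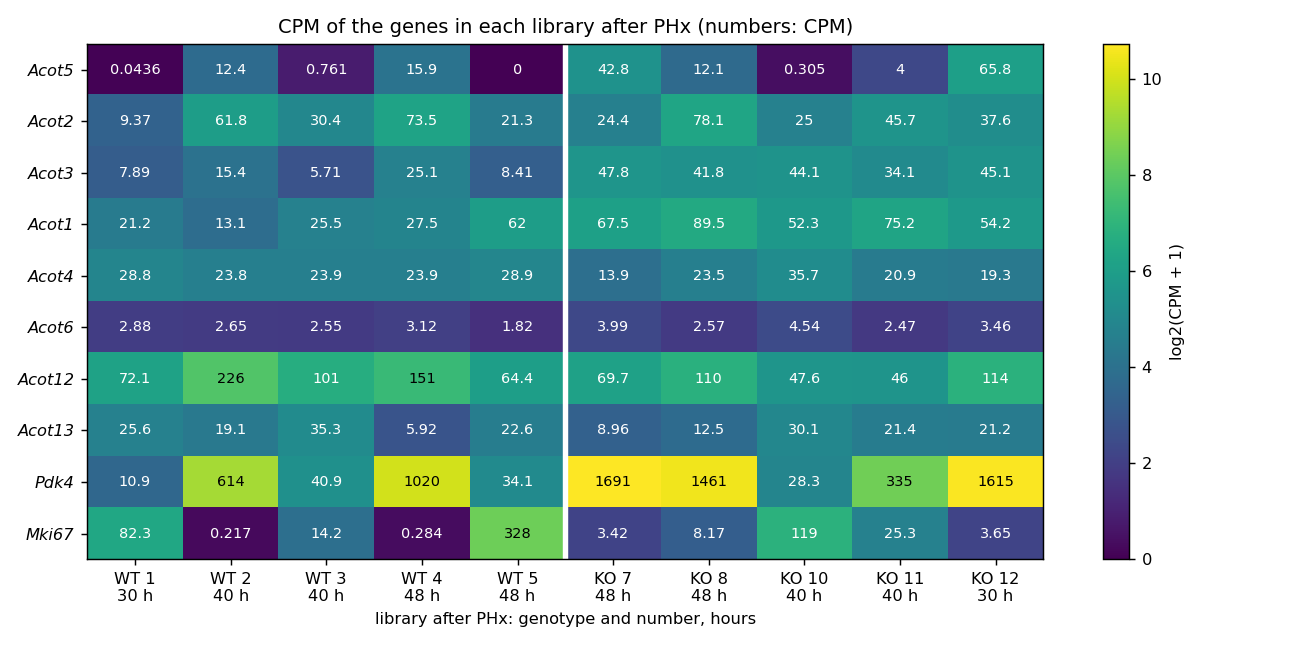
Each cell gives the CPM of a gene (rows) in a library after PHx (columns, with genotype, mouse number and hours), and the colour gives log2(CPM + 1). Acot5 and Pdk4 are high together in WT 2, WT 4, KO 7, KO 8 and KO 12, where Mki67 is between 0.217 and 8.17 CPM.

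Acot2, the mitochondrial enzyme of long-chain acyl-CoA, rose after PHx in both genotypes. It was 2.93, 6.05, 6.48, 5.09 and 4.72 CPM in WT libraries 1 to 5 at baseline. After PHx it was 9.37, 61.8, 30.4, 73.5 and 21.3 CPM in WT mice 1 to 5. No library after PHx overlapped the baseline, and the increase was 2.95 on the log2 scale (SE 0.49, edgeR adjusted p = 0.000561). In KO it went from 4.61, 3.25, 6.41, 7.56 and 12.3 CPM at baseline to 24.4, 78.1, 25, 45.7 and 37.6 CPM (mice 7, 8, 10, 11 and 12), again without overlap. That increase was 2.63 (SE 0.48, adjusted p = 0.0014). The increase in WT was 2.07 without WT mice 2 and 4 (SE 0.43, adjusted p = 0.00454). It was higher after PHx in 4 of 4 WT mice and 5 of 5 KO mice with both samples identified. Between the genotypes no difference passed: KO minus WT was 0.43 at baseline and 0.10 after PHx (adjusted p = 0.572 and 0.893). The difference after PHx was 1.01 without WT mice 2 and 4 (SE 0.44, adjusted p = 0.098).

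Acot3, a peroxisomal enzyme of long-chain acyl-CoA, rose in both genotypes and reached its highest level in KO. At WT baseline it was 0.780, 2.15, 1.13, 3.35 and 1.47 CPM. After PHx it was 7.89, 15.4, 5.71, 25.1 and 8.41 CPM in WT. The increase was 2.80 (SE 0.68, adjusted p = 0.00782, no overlap), and 2.09 without WT mice 2 and 4 (adjusted p = 0.0647). The KO baseline libraries 7, 8, 10, 11 and 12 were uneven at 0.763, 0.718, 3.07, 8.93 and 16.4 CPM, on both sides of the WT range. After PHx all 5 KO libraries lay close together, at 47.8, 41.8, 44.1, 34.1 and 45.1 CPM, above every WT library. The increase in KO was 2.84 (SE 0.67, adjusted p = 0.0051), 3.71 with the mouse as a block (adjusted p = 0.00643) and 3.66 without KO baseline library 12.

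Acot1, the cytosolic enzyme, rose in KO, and in WT no change passed the test. It was 17.5, 30.7, 33.8, 31.4 and 34 CPM at WT baseline and 21.2, 13.1, 25.5, 27.5 and 62.0 CPM after PHx, and these WT groups overlapped (log2 change 0.02, adjusted p = 0.983). With 1 library left out this change ran from -0.38 (without WT mouse 5 after PHx) to 0.21 (without WT mouse 2 after PHx). Without WT mice 2 and 4 Acot1 was not called in WT either. In KO it went from 14.6, 8.16, 25.3, 31.4 and 37.6 CPM to 67.5, 89.5, 52.3, 75.2 and 54.2 CPM without overlap. The increase was 1.53 (SE 0.38, adjusted p = 0.0072), and 5 of 5 KO mice but 1 of 4 WT mice were higher after PHx. The test of the difference between the responses gave 1.52 (SE 0.53) with an unadjusted p of 0.0102 and an adjusted p of 0.221, so a difference in response between the genotypes was not established over all genes. In the same comparisons all 8 cell cycle genes rose in WT (median 5.54) and 1 of 8 in KO (Mcm2), beside 11.4% and 17.5% of all genes. The cell cycle sum was already higher at KO baseline, at 51.3 to 142 CPM against 26.1 to 30.4 CPM in WT. In WT mice 2 and 4 after PHx it was only 33.7 and 46.1 CPM. Of 5 cholangiocyte markers 0 rose in WT and 3 in KO (Krt19, Krt7 and Epcam), and Cidec rose in both. The part of these markers in the Acot2, Acot3 and Acot1 values was not tested.

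Acot4, the peroxisomal enzyme of succinyl-CoA, and Acot6, a peroxisomal enzyme of branched-chain acyl-CoA, had smaller log2 changes than Acot2 and Acot3 in both genotypes. Acot4 was 14 to 22.5 CPM at WT baseline and 23.8 to 28.9 CPM in WT after PHx without overlap, but the log2 change of 0.62 (SE 0.31) did not pass (adjusted p = 0.158). It passed with library size alone (0.98, adjusted p = 0.0229) and with only the 10 WT libraries fitted (0.66, adjusted p = 0.0122). In KO Acot4 was 7.10 to 29.1 CPM at baseline and 13.9 to 35.7 CPM after PHx, a change of 0.58 (SE 0.31, adjusted p = 0.156). That change passed with library size alone (0.86, adjusted p = 0.037) and without KO baseline library 12 (0.94, adjusted p = 0.022). Acot6, with 4 to 133 reads per library, was 0.206 to 1.65 CPM at WT baseline and 1.82 to 3.12 CPM after PHx, an increase of 1.22 (SE 0.37, adjusted p = 0.0274). This call was lost with the mouse as a block (1.46, adjusted p = 0.0639), with only the 10 WT libraries fitted (1.25, adjusted p = 0.0517), without the 40 h libraries (1.27, adjusted p = 0.0517), without WT mice 2 and 4 (1.16, adjusted p = 0.102), and when WT baseline library 5 or WT mouse 4 after PHx was left out (adjusted p up to 0.0604). In KO its change of 0.61 did not pass (adjusted p = 0.205).

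Of the enzymes outside the cluster, Acot13 fell after PHx and Acot12 did not change beyond its spread. Acot13 was 46.0, 58.0, 52.5, 47.0 and 41.8 CPM at WT baseline and 25.6, 19.1, 35.3, 5.92 and 22.6 CPM after PHx, all lower. The change was -1.18 (SE 0.34, adjusted p = 0.0197), and -0.76 without WT mice 2 and 4 (adjusted p = 0.135). In KO it went from 34.1, 36.4, 39.3, 42.4 and 52.3 CPM to 8.96, 12.5, 30.1, 21.4 and 21.2 CPM, a change of -1.12 (SE 0.34, adjusted p = 0.0201). That call was lost when KO mouse 7 or 8 after PHx was left out (adjusted p up to 0.0623). Acot13 was lower after PHx in 4 of 4 WT and 5 of 5 KO mice. The summed endothelial markers were lower after PHx as well, at 149 to 177 CPM before and 75.8 to 142 CPM after in WT and 183 to 216 and 93 to 164 CPM in KO, without overlap. The median hepatocyte sum went from 132650 to 100240 CPM in WT and from 82424 to 61986 CPM in KO. Their part in the Acot13 values was not tested. Across 20 libraries it ran against Acot5 (Pearson -0.80, Spearman -0.81) and Pdk4 (-0.84, -0.79). Acot12 was 103, 113, 135, 120 and 122 CPM at WT baseline and 72.1, 226, 101, 151 and 64.4 CPM after PHx, spread to both sides of the baseline (log2 change 0.05, adjusted p = 0.931, and -0.53 without WT mice 2 and 4, adjusted p = 0.259). In KO the change was 0.12 (adjusted p = 0.786). Across libraries Acot12 ran against Mki67 (-0.73, Spearman -0.82) and with Ppara, the gene of PPAR-alpha (0.76, 0.79).

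With Acot5 described only, 3 of the 7 genes tested rose and 1 fell after PHx in WT, beside 20.1% of all 14661 genes tested that were called in either direction (11.4% higher, 8.68% lower). In KO 3 of the 7 rose and 1 fell, beside 29.5% of all genes (17.5% higher, 12.1% lower). A gene was called when the edgeR quasi-likelihood test gave p under 0.05 after Benjamini-Hochberg adjustment over the whole table. Comparisons that use the same group share its libraries, so the responses and the genotype differences are not independent of each other. Without WT mice 2 and 4, 1 of the 4 calls in WT, that of Acot2, was left, where 10.2% of all genes were called in either direction. With the time point as an added term 0 of the 4 calls in WT and 1 of the 4 in KO was left; the response then rests on the 1 library per genotype at 30 h. With library size alone the median over all genes moved from 0.04 to 0.40 in WT and from 0.10 to 0.37 in KO, the higher calls went from 56.8% to 86.7% and from 59.1% to 80.9%, and Acot13 in WT was no longer called (-0.82, adjusted p = 0.0699). For 0 of the 7 genes tested was a difference called in response between the genotypes (adjusted p 0.221 to 0.997), where 0.389% of all genes were called, 1 had an unadjusted p under 0.05 (Acot1) and DESeq2 called 0. The difference fitted for Acot3 was 0.04 (SE 0.96), 1.05 with the mouse as a block (adjusted p = 0.76) and 0.72 without WT mice 2 and 4 (adjusted p = 0.708).

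**Figure D3:**
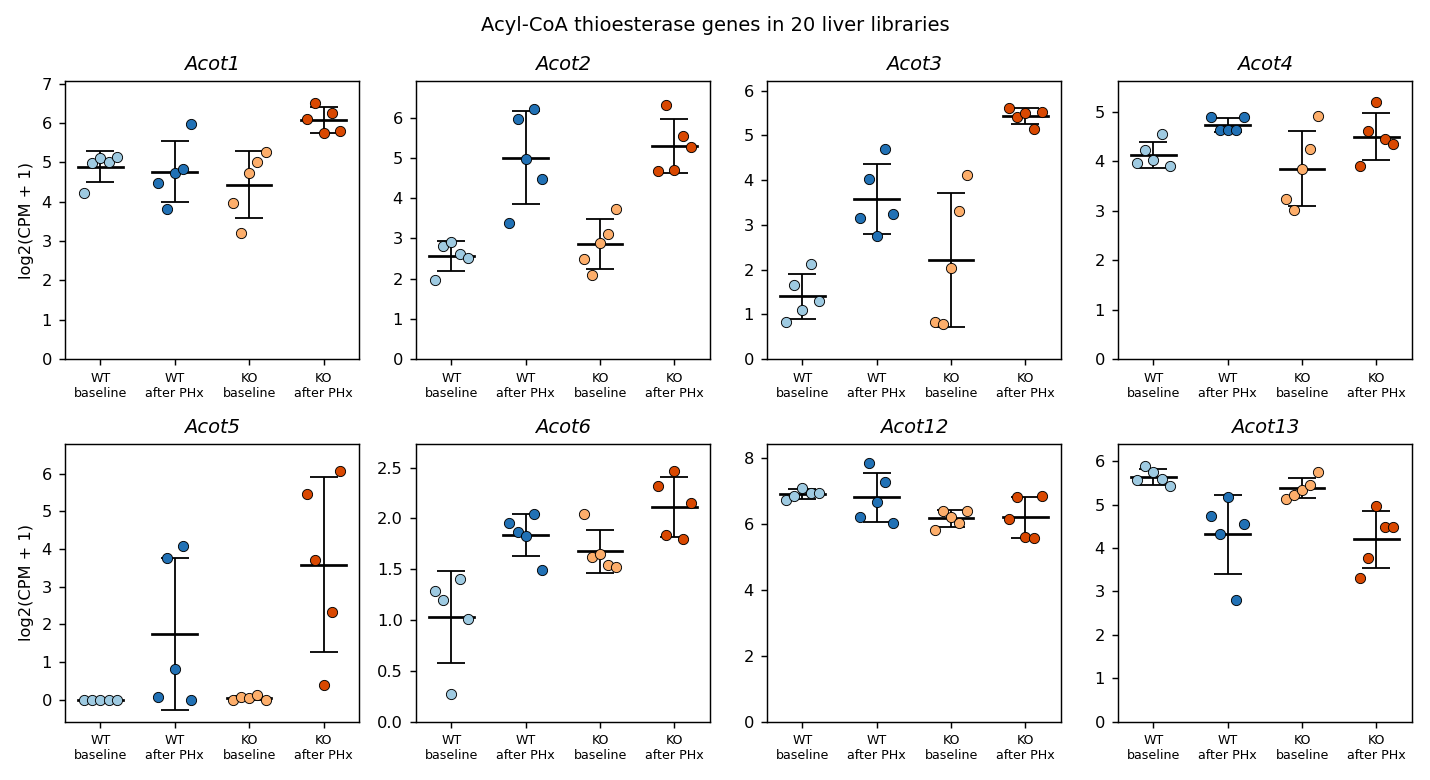
Points are single libraries in the 4 groups (x axis) and the y axis is log2(CPM + 1), with the mean as a bar and the SD as whiskers (n = 5). Acot2 and Acot3 after PHx lie above the baseline of their genotype in every library, Acot13 lies below it, and Acot5 spreads from 0 to 65.8 CPM.

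Between the genotypes at baseline none of the 7 genes tested was called, where 16% of all genes were (11.1% higher in KO, 4.89% lower), while 3 had an unadjusted p under 0.05. Acot6 was 1.43, 1.30, 0.206, 1.65 and 1.01 CPM in WT and 3.12, 2.07, 2.14, 1.91 and 1.88 CPM in KO, higher in every KO library (log2 difference 0.99, SE 0.37, adjusted p = 0.0762). Acot12 was lower in every KO library, at 55.4, 82.2, 72.6, 63.2 and 82.3 CPM against 103 CPM or more in WT (-0.74, SE 0.31, adjusted p = 0.108). Acot3 overlapped, with a difference of 1.73 (SE 0.67, adjusted p = 0.0819). That difference was 0.91 without KO baseline library 12, and it was called without KO baseline library 7 or 8 (adjusted p down to 0.032). DESeq2 called Acot3 and Acot6 (adjusted p = 0.0278 and 0.0185), and a fit of only the 10 baseline libraries called Acot12 (-0.71, adjusted p = 0.000659). Scaling by library size alone moved the median log2 difference of all genes from -0.03 to 0.45 and the higher calls from 69.5% to 96.9% of all calls. With that scaling the sign of Acot1 (-0.33 to 0.10), Acot4 (-0.15 to 0.30) and Acot13 (-0.26 to 0.20), none of them called, turned. Acot3 (2.13, adjusted p = 0.024) and Acot6 (1.49, adjusted p = 0.00766) were then called, and Acot12 was -0.27 (adjusted p = 0.514). The summed hepatocyte markers were 126670 to 148360 CPM in WT and 79320 to 112130 CPM in KO at baseline (7 of 8 listed genes found), the macrophage markers 99.2 to 169 and 227 to 291 CPM (7 genes) and the stellate cell and fibroblast markers 139 to 219 and 356 to 396 CPM (6 genes). The endothelial markers were 149 to 177 and 183 to 216 CPM (6 genes), the cell cycle genes 26.1 to 30.4 and 51.3 to 142 CPM (8 genes) and the cholangiocyte markers 23.3 to 58.2 and 55.5 to 359 CPM (6 genes). Of these sums only that of the cholangiocyte markers overlapped between the genotypes. The part of these shifts in the Acot12, Acot6 and Acot3 values was not tested.

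After PHx 2 of the 7 genes tested were called and both were higher in KO, beside 24.2% of all genes (16% higher, 8.20% lower). Acot3 was higher by 1.77 on the log2 scale (SE 0.64, adjusted p = 0.0489), with no overlap between 34.1 CPM or more in KO and 25.1 CPM or less in WT. Acot1 was higher by 1.18 (SE 0.38, adjusted p = 0.0286), with 3 of 5 KO libraries above all WT libraries and WT mouse 5 at 62.0 CPM inside the KO range. Both stand near the threshold. Of the 10 fits that left out 1 library after PHx, Acot1 was no longer called in 6 (WT mice 1, 2, 3 and 4 and KO mice 8 and 11) and Acot3 in 9 (all but WT mouse 4), with adjusted p up to 0.0735 and 0.106. Without WT mice 2 and 4 Acot1 was at 0.86 (adjusted p = 0.127) and Acot3 at 2.51 (adjusted p = 0.0227). Without the 30 h or the 40 h libraries neither was called. Acot3 was also lost without the 48 h libraries (2.12, adjusted p = 0.126) and with the time term (1.82, adjusted p = 0.0536), and Acot1 with only the 10 libraries compared (1.20, adjusted p = 0.0656). The direction was the same in each of these fits. Acot12 was lower in KO at 46.0 to 114 CPM against 64.4 to 226 CPM, a difference of -0.67 (SE 0.31) that did not pass (adjusted p = 0.12). It was -0.99 without the 30 h libraries (adjusted p = 0.032) and -0.05 without WT mice 2 and 4 (adjusted p = 0.897). Acot2, Acot4, Acot6 and Acot13 differed by 0.10, -0.19, 0.39 and -0.20, and their groups overlapped. With library size alone Acot4 and Acot13 turned to 0.18 and 0.15, as the median over all genes moved from -0.01 to 0.37 and the higher calls from 66.1% to 92.9%. The summed hepatocyte markers after PHx were 79899 to 133670 CPM in WT and 48366 to 106030 CPM in KO, and the cholangiocyte markers 21 to 239 and 120 to 562 CPM (6 genes). The stellate cell and fibroblast markers were 124 to 214 CPM in WT and 231 to 421 CPM in KO after PHx, without overlap. Their part in the Acot1 and Acot3 differences was not tested.

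**Figure D4:**
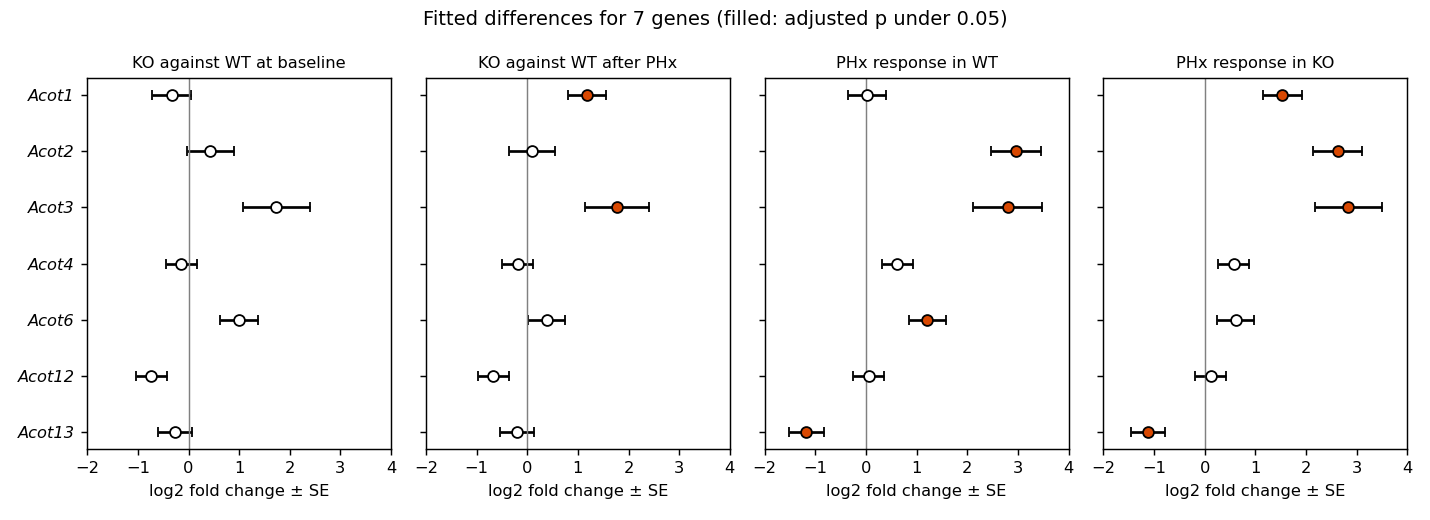
Points are fitted log2 fold changes with their SE for 7 genes in 4 comparisons, filled where the adjusted p is under 0.05. Acot5 is left out, because a fold against groups at or near 0 reads is not an estimate. Filled points lie at 1.18 and 1.77 for KO against WT after PHx, and none is filled at baseline.

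Of 24 annotated genes within 250 kb of the cluster, 7 passed the filter. At baseline 0 of the 7 were called between the genotypes. After PHx Papln (2.14, adjusted p = 0.00406) and Riox1 (1.13, adjusted p = 0.0187) were higher in KO and none was lower. In the response to PHx 1 rose and 1 fell in WT, and 2 rose and 1 fell in KO. With 7 genes these counts are near the 24.2%, 20.1% and 29.5% called over all genes.

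Genes were also ranked by the Pearson correlation of log2(CPM + 1) with each member over the 20 libraries. For Acot5 the nearest were Rab30 (0.99), Ccdc180 (0.98) and Sphk1 (0.98), for Acot13 Echdc3 (0.97), Slc47a1 (0.97) and Dpys (0.97), and for Acot2 Fkbp5 (0.93), Farp1 (0.92) and Pgs1 (0.92). Acot3 was near to Caskin2 (0.91) and Farp1 (0.89), and Acot12 to Mettl22 (0.90), Rpl23 (0.89) and Nrbp2 (0.89). Acot1 (Dynlt1b 0.85, Trim28 0.81, Cldnd1 0.79), Acot6 (Sema3f 0.88, Syt12 0.86, Tchp 0.85) and Acot4 (Emc1 0.82, Ecd 0.77, Prkag1 0.77) had less similar partners. Among the members, Acot2 and Acot3 were the most alike (0.85, Spearman 0.84), followed by Pearson by Acot2 with Acot5 (0.75, 0.78) and Acot3 with Acot5 (0.73, 0.75), while Acot4 and Acot5 were at 0.12 (0.18). By Spearman Acot5 with Acot6 (0.78, Pearson 0.52) stood above Acot3 with Acot5. Shared surgery, genotype and library composition all enter such values.

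Among the other acyl-CoA thioesterases more genes were lower than higher in KO after PHx. Of 10 tested, 1 was higher and 4 were lower (median log2 difference -0.52, beside -0.01 over all genes, of which 16% were higher and 8.20% lower). Acot9, a mitochondrial thioesterase, was 6.42 ± 2.20 CPM in WT and 16.5 ± 8.98 CPM in KO (log2 1.36, adjusted p = 0.00685). Acnat2 (-2.11, adjusted p = 0.0244), Baat, which joins bile acids to amino acids (-1.71, adjusted p = 6.5e-05), and Them4 (-1.21, adjusted p = 0.0214) were lower. At baseline Acot9 was higher (1.64, adjusted p = 0.00324), and Baat (-0.80, adjusted p = 0.0288) and Hibch, a hydrolase of valine breakdown (-0.78, adjusted p = 0.0323), were lower, with a median of -0.32 against -0.03. After PHx 2 of the 10 rose and 2 fell in WT, and 1 rose and 2 fell in KO, beside 20.1% and 29.5% of all genes called.

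The acyl-CoA synthetases make the esters that these enzymes split. At baseline 1 of 20 was higher in KO and 6 were lower (median -0.39), beside 11.1% and 4.89% of all genes. Acsl1, the main long-chain synthetase of liver, was 1690 ± 154 CPM in WT and 512 ± 129 CPM in KO (-1.72, adjusted p = 0.000173), Aacs, which activates acetoacetate, was lower (-1.62, adjusted p = 0.00315), and Acsm2 was -1.61 (adjusted p = 0.0299). Acss1, the mitochondrial acetyl-CoA synthetase, was higher (2.16, adjusted p = 0.0154). After PHx 4 were higher and 1 lower in KO, near the 16% and 8.20% of all genes. Among the 4 were Acss1, Acsbg1 and Slc27a3, with WT means of 0.0542, 0.140 and 0.399 CPM. These WT means are near the floor of counting, so the sizes of their differences are not estimates. Acsm2 was lower (-1.66). Without WT mice 2 and 4, 3 of 21 were higher and 3 lower, where 26.2% of all genes were called in either direction. Acsbg1 (adjusted p = 0.0904) and Slc27a3 (adjusted p = 0.0937) were then no longer called. Of the genes for CoA synthesis and breakdown, 2 of 12 were lower at baseline, the pantothenate kinases Pank1 (-0.98) and Pank3 (-0.70). After PHx Pank1 (-0.99) and the peroxisomal CoA carrier Slc25a17 (-1.01) were lower and the CoA hydrolase Nudt19 was higher (0.87). Without WT mice 2 and 4 Slc25a17 was still called (-1.03, adjusted p = 0.00608), while Pank1 (-0.70, adjusted p = 0.14) and Nudt19 (0.91, adjusted p = 0.0511) were not.

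In peroxisomal fatty acid oxidation and transport 5 of 19 genes were lower in KO at baseline and 4 after PHx, and none was higher (medians -0.45 and -0.38). Acaa1b (-1.38) and Crot (-0.89) were lower at baseline, and Crot (-0.95) and Acox2 (-0.92) after PHx, and both were also called without WT mice 2 and 4. In mitochondrial oxidation 3 of 17 were lower at baseline (Etfdh -0.82, Slc25a20 -0.60, Acadvl -0.60) and 2 after PHx (Etfdh -0.51, Hadhb -0.51), and none was higher. All of these counts set the lower share of the lists beside 4.89% of all genes at baseline and 8.20% after PHx. Of the hepatocyte markers 3 of 7 were lower in KO at baseline (median -0.63) and 2 after PHx (median -0.72), and none was higher. The part of that shift in these lists was not tested.

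Some PPAR-alpha targets rose after PHx. Of 24 tested, 7 rose and 3 fell in WT after PHx (median 0.66 beside 0.04 over all genes) and 7 rose and 0 fell in KO (0.51 beside 0.10), where 11.4% of all genes rose in WT and 17.5% in KO and 8.68% and 12.1% fell. Without WT mice 2 and 4, 4 rose and 2 fell in WT (median 0.27 beside 0.06), where 10.2% of all genes were called in either direction. Other lists went the other way: of 20 acyl-CoA synthetases 0 rose and 8 fell in WT (median -1) and 1 rose and 6 fell in KO (median -0.41), and of 19 peroxisomal genes 0 rose and 7 fell in WT (median -0.44) and 1 rose and 4 fell in KO (median -0.43). Without WT mice 2 and 4, 6 of 21 synthetases and 3 of 19 peroxisomal genes fell in WT, beside the same 10.2% of all genes called in either direction. Between the genotypes 1 was higher in KO (Cyp4a31, 1.32, adjusted p = 0.0419) and 4 lower at baseline, among them Fitm1, a lipid droplet gene (-4.85), and Fitm2 (-0.94). After PHx 0 were higher and 2 lower, among them Fitm1 (-3.77). The list was drawn up without the members described here, so Acot1 and Acot3, which were higher in KO after PHx, are not counted in it. Between the genotypes 11.1% of all genes were higher and 4.89% lower at baseline, and 16% and 8.20% after PHx. Of 14 regulators and partners, 5 were lower in KO at baseline and none was higher: Pparg (-1.55), the bile acid receptor gene Nr1h4 (-1.18) and Ppara itself (-1.07, 74.4 ± 19.1 against 35.3 ± 5.02 CPM, adjusted p = 0.0259) changed most. After PHx only Pctp was called, the gene of the ACOT13 partner (-1.64, adjusted p = 0.012), and without WT mice 2 and 4 it was -0.41 (adjusted p = 0.395), while Ncor1 was called lower (-0.51, adjusted p = 0.0463). Pdk4 (4.09 in WT, 5.01 in KO) and Cidec (8.11 and 7.46) were among the targets that rose after PHx, and neither passed between the genotypes after PHx (1.58 and 0.06, adjusted p = 0.236 and 0.969). WT mice 2 and 4 had the most Pdk4 in WT after PHx (614 and 1020 CPM), while KO mice 7, 8 and 12, at 1461 CPM or more, were kept. Without WT mice 2 and 4 Pdk4 was 0.57 in WT and 5.12 between the genotypes. Both Pdk4 values follow from that choice of libraries and are not tests. Cidec was then at 6.09 in WT (adjusted p = 0.00163) and 2.13 between the genotypes (adjusted p = 0.12).

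**Figure D5:**
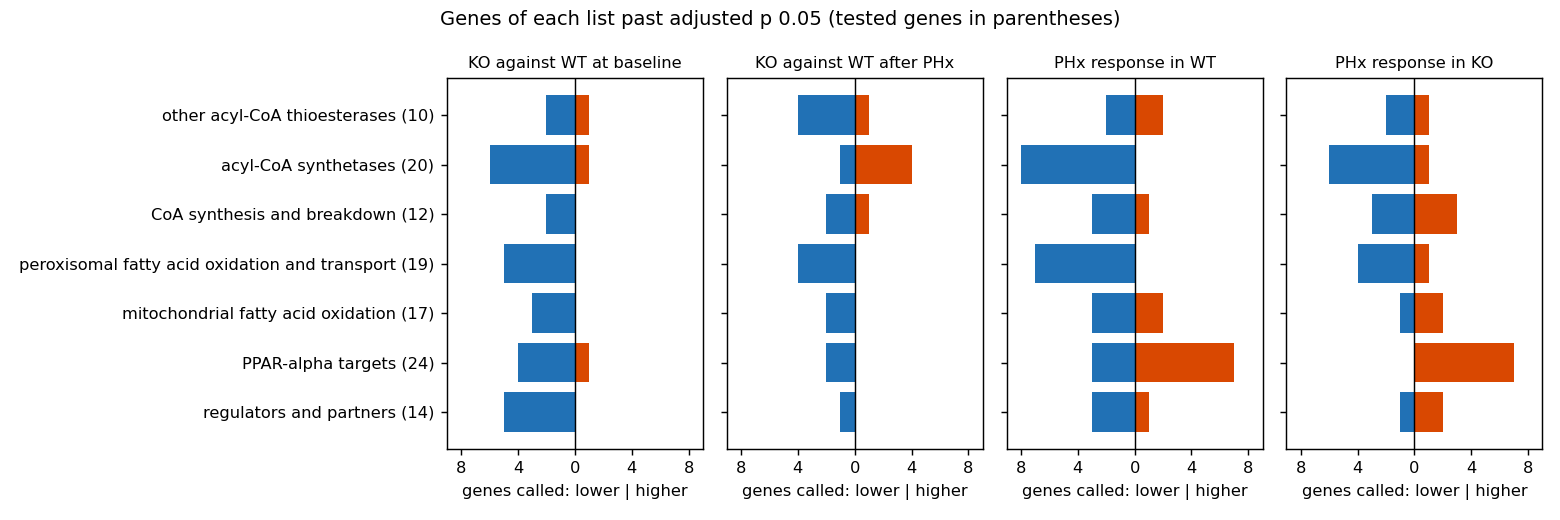
Bars count the genes of each list that passed an adjusted p of 0.05, lower to the left and higher to the right, in 4 comparisons (the number tested stands in parentheses). PPAR-alpha targets have 7 genes higher after PHx in each genotype and 0 higher in KO against WT after PHx.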

How the data were processed

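Liver RNA-seq was analysed in 20 libraries, 5 in each of 4 groups of genotype and stage. The values are raw read counts per Ensembl gene, deposited by the authors as 1 table per library, and the series' design text states that uniquely mapped reads were used with mm10. FastQC 0.11.5 and fastp 0.20.0 are named in the series' design text and Trimmomatic 0.36 in the submitters' processing notes. The aligner, counter, annotation release and strand setting are not given in the sources used here. Symbols came from GENCODE M21 (46005 of 46603 identifiers matched). No pair of libraries held identical values (0 pairs).

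Genes passing filterByExpr (14661, all 8 members among them, Acot5 through the libraries after PHx) were fitted once over 20 libraries with 4 group means in edgeR 4.0.16 (R 4.3.3, TMM, quasi-likelihood test), and p-values were adjusted by Benjamini-Hochberg in each of 5 contrasts. The fit was tested on simulated data. CPM are TMM-scaled, TPM used union exon length, and correlations used log2(CPM + 1). Alternatives were library size alone, DESeq2 1.42.0, no filter, at least 1 CPM in 5 libraries, a time term, only the 10 libraries compared, a replicate block, single libraries left out and the longest transcript for TPM. Leaving out a time point, or WT mice 2 and 4 after PHx, was chosen after seeing the data. No KO library was left out together with WT mice 2 and 4. The same mouse number in the titles pairs 9 mice, and the paired libraries' residuals correlated at -0.063 to 0.20.

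The members and gene lists were chosen with earlier results of these data known. Of each list, up to 3 called genes per direction were named in the genotype comparisons, by size of change, and for each member the 3 genes most like it. Some genes that this rule names are not reported here. Intervals and floors cover counting error only.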

Additional observations from a re-analysis of the deposited data

Results flagged for a closer look

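In 32 groups of 5 libraries (8 genes in 4 groups), a single library stood apart in 2, where chance alone gives about 1 in 20. Acot1 in WT baseline library 1 was 17.5 CPM, with a gap to its nearest neighbour of 0.80 of the group's range (critical value 0.71). Acot6 in KO baseline library 7 was 3.12 CPM, with a gap of 0.79 of the range.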

How the results depend on the processing

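The genes called were 2348 at baseline, 3544 after PHx, 2950 in the WT response, 4331 in the KO response and 57 for the difference of responses. Of the member log2 values under all alternatives, 695 stayed the same, 65 reversed, 43 lost and 12 gained a call, and 1 moved. Same means the same direction and side of the threshold. For Acot5 values that were not tested it means the same direction and a shift of less than 1 SD. The 1 that moved was Acot5 without WT mice 2 and 4. The causes were not tested. At baseline, library size alone called 3634 genes and 2 members and turned Acot1 to 0.10, Acot4 to 0.30 and Acot13 to 0.20, DESeq2 called 2 members, and only the 10 libraries compared gave 5242 genes and 1 member. After PHx, library size alone turned Acot4 to 0.18 and Acot13 to 0.15. The time term left 1 member and only the 10 libraries 1345 genes and 1 member. Without 30 h there was 1 member (Acot12) and Acot2 was -0.11, without 40 h 5489 genes and 0 members, without 48 h 1692 genes and 1 member with Acot4 at 0.0072, and without WT mice 2 and 4 there was 1 member and Acot5 was 6.52. In the WT response the time term gave 563 genes, 0 members and Acot1 at -0.44. The replicate block over mice turned Acot1 to -0.24 and Acot12 to -0.0034, and of the members' calls it ended that of Acot6 in WT. Acot12 was -0.24 without 40 h, Acot1 -0.50 without 48 h, and without WT mice 2 and 4 there were 1564 genes, 1 member and Acot12 at -0.53. In the KO response the time term gave 1389 genes and 1 member, only the 10 libraries 2878 genes, Acot12 was -0.060 without 30 h, and 7127 genes were called without 40 h and 2046 without 48 h. For the difference, library size alone turned Acot13 to -0.060, DESeq2 called 365 genes, no filter gave Acot3 -0.040, Acot12 -0.015 and Acot13 -0.0068, the time term 90 genes, and the replicate block 7 genes and Acot4 0.14. Without 30 h it was 90 genes, Acot3 -0.11, Acot4 0.046 and Acot12 -0.25, without 40 h 1873 genes, Acot3 -0.053 and Acot13 -0.085, without 48 h 30 genes, Acot4 0.12 and Acot12 -0.21, and without WT mice 2 and 4 Acot2 was 0.52 and Acot13 -0.36. With single libraries left out, 0 to 1 members were called at baseline (Acot4 -0.52 to 0.065) and 0 to 1 after PHx (Acot2 -0.24 to 0.42, Acot13 -0.44 to 0.039). Acot1 was -0.38 to 0.21 and Acot12 -0.29 to 0.27 in the WT response, and Acot12 -0.060 to 0.25 in KO. The difference called 22 to 708 genes (708 without KO mouse 10 after PHx), with Acot3 at -0.33 to 0.86, Acot4 -0.27 to 0.32, Acot12 -0.17 to 0.40 and Acot13 -0.24 to 0.30. With the longest transcript, Acot6 was 1.30 TPM in WT after PHx, 1.25 at KO baseline and 2.31 in KO after PHx, and Acot13 112 TPM at KO baseline. Depth limits Acot5 at baseline and Acot6, which had few reads.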

Other observations

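The PPAR-alpha targets Pdk4 and Cyp4a14, the latter a fatty acid omega-hydroxylase, differed in how they went with Acot4 and Acot5, while Acot2 and Acot3 went with both. Over 20 libraries the Pearson correlation of log2(CPM + 1) with Cyp4a14 was 0.67 for Acot4 (Spearman 0.68), 0.62 for Acot3 (0.59), 0.61 for Acot2 (0.70) and 0.19 for Acot5 (0.47). With Pdk4 it was 0.08 for Acot4 (0.02), 0.72 for Acot3 (0.61), 0.79 for Acot2 (0.67) and 0.96 for Acot5 (0.75). Pdk4 and Cyp4a14 themselves were at 0.17 (0.22). These values are descriptions chosen after they were seen, and the libraries share surgery and genotype.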
